A study of Mus musculus with 6 samples.

Results

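The 10 genes described here encode nuclear receptors of lipid sensing, retinoid signalling, immediate early response and glucocorticoid response: Pparg, Ppard, Ppara, Rxra, Rxrb, Rara, Nr4a1, Nr4a2, Nr4a3 and Nr3c1. They were chosen by symbol from a table of 16503 genes, and all 10 were found in it. The table held RNA-seq values of 6 libraries of Tim4-negative, monocyte-derived macrophages, sorted as Ly6C-low F4/80-positive cells from the livers of mice labelled WT in genotype and CDA-HFD in treatment. CDA-HFD is a choline-deficient high-fat diet that induces MASH, a fatty liver disease with inflammation. CD11chiMinclehi macrophages (n = 3 libraries) were set against CD11cloMinclelo macrophages (n = 3 libraries), the subsets that the study relates to hepatic lipid-associated macrophages (hLAMs) and to monocyte-derived Kupffer cells (moKCs). Both groups shared genotype and diet, so none of the comparisons is against healthy liver. Each subset was defined by surface CD11c and Mincle alone within this sort, and may hold several kinds of cell. The titles call the libraries biological replicates and number them 1 to 3 in each group. In the sample descriptions both groups carry the same library numbers and skip the same ones. The sources used here do not say whether a number marks 1 mouse, so p-values measure the spread between these libraries.

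Nuclear receptors are transcription factors, many of which are switched by small lipid-soluble ligands. The peroxisome proliferator-activated receptors (PPARs) bind fatty acids and their derivatives and act on DNA as heterodimers with a retinoid X receptor (RXR), as do the liver X receptors (LXRs) and the retinoic acid receptors. PPARgamma drives lipid uptake and storage genes in macrophages. The NR4A receptors are thought to act largely without a ligand, and their genes are transcribed within minutes of many stimuli. The glucocorticoid receptor waits in the cytoplasm on chaperones and enters the nucleus with its hormone.

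Because the NR4A genes belong to the immediate early genes, the sequence before their start is shown for sites of CREB, the factor through which cAMP and calcium signals reach many such genes. The 5-letter half-site of CREB, TGACG, was searched on both strands of the 250 bases before each RefSeq start (GRCm38.p6), and matches are in capitals (CGTCA is the same site on the other strand). For Nr4a3 the stretch ends where the first annotated exon begins. The Nr4a1 stretch, at chr15:101266596-101266845 on the plus strand, lies in an intron of longer transcripts of the gene. The Nr4a2 stretch, at chr2:57124004-57124253 on the minus strand, and the Nr4a3 stretch, at chr4:48045055-48045152 on the plus strand, lie upstream of their genes. None of the stretches touches an annotated exon in GENCODE release M21.
Nr4a1: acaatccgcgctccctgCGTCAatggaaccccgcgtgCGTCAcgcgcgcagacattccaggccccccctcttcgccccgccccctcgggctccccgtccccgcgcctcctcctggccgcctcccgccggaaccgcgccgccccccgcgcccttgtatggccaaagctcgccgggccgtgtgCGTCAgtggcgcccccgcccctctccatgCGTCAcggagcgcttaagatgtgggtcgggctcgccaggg
Nr4a2: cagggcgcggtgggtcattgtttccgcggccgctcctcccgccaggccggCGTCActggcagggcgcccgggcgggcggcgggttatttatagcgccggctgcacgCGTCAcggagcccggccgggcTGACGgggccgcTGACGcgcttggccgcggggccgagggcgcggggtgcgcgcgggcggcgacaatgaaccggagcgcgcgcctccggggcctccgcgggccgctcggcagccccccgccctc
Nr4a3: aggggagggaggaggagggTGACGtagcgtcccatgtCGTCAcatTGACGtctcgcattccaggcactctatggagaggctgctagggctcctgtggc

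The half-site stood 4 times in the 250 bases of Nr4a1, 4 times in those of Nr4a2 and 3 times in the 98 bases shown for Nr4a3, whose whole window of 250 bases held 4. Of 32851 promoter windows of the same length, 17.8% held at least 1 half-site, 0.688% at least 3 and 0.137% at least 4. No NR4A window held the full palindrome TGACGTCA, which stood in 1.55% of all windows. Among the 13 windows of the other members for which a promoter was given, those of Ppara, of 1 of 2 Rxrb starts and of 1 of 4 Rara starts held 1 half-site each. The site GCGTGGGCG of the EGR factors (0.536% of all windows) stood in none of the members' windows. The NR4A monomer site AAAGGTCA (1.34% of all windows) stood in 1 of 2 Rxra windows. A match is a run of letters and was not tested as a binding site.

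Nr4a1 stood far above the other members in both subsets, and Ppara and Ppard were near the bottom of the table. TPM (a level per transcript length, scaled to the same total in each library) allows genes to be ranked within a library. Duplicates had been removed from the reads, which can lower the values of abundant genes. The part of that step in these levels and ranks was not tested. Over the 6 libraries Nr4a1 averaged 561 ± 46.5 TPM and Pparg 211 ± 21.6 TPM (SD, n = 6). They were followed by Rxrb (121 ± 6.0 TPM), Nr3c1 (103 ± 10.1 TPM), Nr4a2 (89.9 ± 20.3 TPM), Rxra (65.2 ± 15.3 TPM) and Nr4a3 (46.7 ± 6.28 TPM). Rara (25.8 ± 5.02 TPM), Ppard (3.57 ± 1.39 TPM) and Ppara (1.80 TPM, between 0.667 and 3.77 TPM) closed the order. The lowest Nr4a1 library (499 TPM) was above the highest Pparg library (243 TPM), and the ranges were likewise apart between Pparg and Rxrb, between Nr4a3 and Rara and between Rara and Ppard. The ranges of the neighbours from Rxrb down to Nr4a3 overlapped, as did those of Ppard and Ppara. Even so Rxrb was above Nr3c1, Rxra above Nr4a3 and Ppard above Ppara in 6 of 6 libraries. Nr3c1 was above Nr4a2, and Nr4a2 above Rxra, in 5 of 6.

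**Figure D1:**
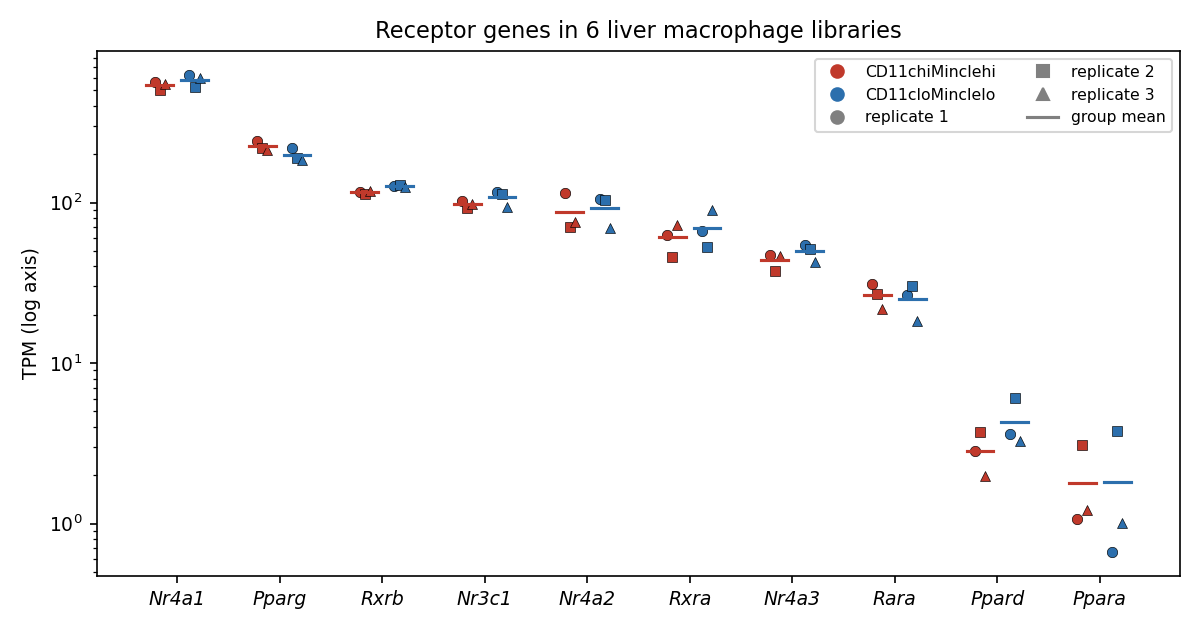
TPM of the 10 receptor genes (log axis) in every library, CD11chiMinclehi in red on the left of each gene and CD11cloMinclelo in blue on the right, with the replicate number as the symbol and the group mean as a bar. Levels run over more than 2 decades, with Nr4a1 near 561 TPM and Ppara near 1.80 TPM, while the groups lie side by side for each gene.

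Set among all 31 nuclear receptor genes that the table held, Nr4a1 ranked 1 and Pparg ranked 4. Between them stood the LXR genes Nr1h3 (358 TPM over the 6 libraries), which encodes LXRalpha, and Nr1h2 (223 TPM), which encodes LXRbeta. Rxrb, Nr3c1 and Nr4a2 took ranks 5, 6 and 7, Rxra rank 9, Nr4a3 rank 12 and Rara rank 13. Ppard was at rank 25 and Ppara at rank 29. Rxrg and Rarb, the remaining members of the RXR and retinoic acid receptor families apart from Rarg, were not analysed here.

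None of the 10 receptor genes passed the test between the subsets, which was run over all genes. The test was limma's moderated linear model on log2(TPM + 1), two-sided, with Benjamini-Hochberg adjustment over 16503 genes and a threshold of 0.05. Of all genes, 1.22% passed it (202 genes, 0.770% higher and 0.454% lower in CD11chiMinclehi macrophages), and 0 of 10 receptors did. At an unadjusted p under 0.05 the count was also 0 of 10, against 12.9% of all genes. With the replicate number as a block, which compares libraries of the same number, 3.42% of all genes passed (1.67% higher, 1.75% lower) and again 0 of 10 receptors, with 2 of 10 at an unadjusted p under 0.05 against 16.6% of all genes. Those 2 were Pparg and Nr4a1. The log2 fold change was positive for 3 receptors and negative for 7, with a median of -0.12 beside -0.01 over all genes. A p above the threshold does not show equality, so the intervals are given with each gene. For 8 of 10 receptors the 95% interval lay within a 2-fold change either way and for 5 within 1.5-fold.

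Pparg, the gene of the PPAR that drives fatty acid uptake and storage in macrophages and fat cells, was slightly higher in CD11chiMinclehi macrophages without passing. It is on chromosome 6 from 115360951 to 115490399 (plus strand, GRCm38, GENCODE M21). Its levels were 243, 218 and 212 TPM in CD11chiMinclehi libraries 1 to 3, against 219, 189.9 and 183 TPM in CD11cloMinclelo libraries 1 to 3. The groups overlapped, since CD11cloMinclelo library 1 was above CD11chiMinclehi libraries 2 and 3, yet the CD11chiMinclehi library was the higher in each of the 3 same-numbered pairs. The log2 fold change was 0.18 ± 0.08 (SE, n = 3 libraries each), with a 95% interval from -0.01 to 0.38 and an adjusted p of 0.425 in limma. With the replicate block the interval ran from 0.06 to 0.31 and the adjusted p was 0.131.

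Ppard and Ppara were low in every library. Ppard encodes the broadly expressed PPAR of fatty acid oxidation, and Ppara the PPAR of the fasting liver. Ppard, on chromosome 17 from 28232700 to 28301474 (plus strand), was at 2.82, 3.70 and 1.98 TPM in CD11chiMinclehi libraries and at 3.60, 6.10 and 3.25 TPM in CD11cloMinclelo libraries. The CD11chiMinclehi library was the lower in 3 of 3 pairs and the groups overlapped (log2 fold change -0.46 ± 0.41, 95% interval from -1.41 to 0.49, limma adjusted p = 0.728). These levels correspond to an estimated 27.5 to 89.4 reads per library. Ppara, on chromosome 15 from 85734983 to 85802819 (plus strand), was at 1.07, 3.10 and 1.22 TPM in CD11chiMinclehi libraries and at 0.667, 3.77 and 1.00 TPM in CD11cloMinclelo libraries. Its 2 highest values were both in libraries numbered 2. It rested on an estimated 4.33 to 28.2 reads per library, and a 2-fold change either way lay inside its interval (log2 fold change 0.08 ± 0.59, 95% interval from -1.28 to 1.44, limma adjusted p = 0.981).

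The RXR genes, whose products pair with the PPARs, LXRs and retinoic acid receptors, were measured at moderate levels. Rxrb, on chromosome 17 from 34031812 to 34038399 (plus strand), was at 116, 114 and 118 TPM in CD11chiMinclehi libraries, against 127, 128 and 125 TPM in CD11cloMinclelo libraries. It was the steadiest member within groups and the only one whose groups did not overlap, 1 of 10 beside 18.5% of all genes. The difference was small, with a ratio of means of 0.917 and a log2 fold change of -0.12 ± 0.06 (95% interval from -0.27 to 0.02, limma adjusted p = 0.478 without a block and 0.433 with the replicate block).

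Rxra, on chromosome 2 from 27676440 to 27762957 (plus strand), was at 63.2, 46.0 and 73.0 TPM in CD11chiMinclehi libraries and at 66.8, 53.2 and 89.4 TPM in CD11cloMinclelo libraries. In both groups library 3 was the highest and library 2 the lowest, and the CD11chiMinclehi library was the lower in 3 of 3 pairs. The log2 fold change was -0.19 ± 0.22 (95% interval from -0.71 to 0.33, limma adjusted p = 0.810 without a block and 0.402 with it). Without CD11cloMinclelo library 3 it was 0.00075. Rxra is in the moKC gene signature that the study took from earlier work, as is Nr3c1. The summed level of 8 Kupffer cell markers moved with the subsets, at 578, 590.2 and 1136 TPM in CD11chiMinclehi libraries and at 1765, 2024 and 2882 TPM in CD11cloMinclelo libraries, and was highest in library 3 of each group. Among these markers Fcna, a lectin gene of Kupffer cells, passed (log2 fold change -2.17 ± 0.34, limma adjusted p = 0.0326). With the block 6 of 8 fell, beside 1.75% of all genes. The Fcna call was lost without any 1 library (adjusted p = 0.0595 to 0.193) and without the variance trend (0.195). Cd5l and Cd207 were the most abundant of them. The endothelial marker sum (78.3, 128 and 159 TPM in CD11chiMinclehi libraries, 81.7, 157 and 244 TPM in CD11cloMinclelo libraries) and the neutrophil marker sum (130.3, 319 and 335 TPM in CD11chiMinclehi libraries, 81.7, 342 and 359.8 TPM in CD11cloMinclelo libraries) were also highest in library 3 of each group. The part of any of these markers in the Rxra values was not tested. In bulk libraries fewer cells of a type and less RNA per cell cannot be told apart.

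**Figure D2:**
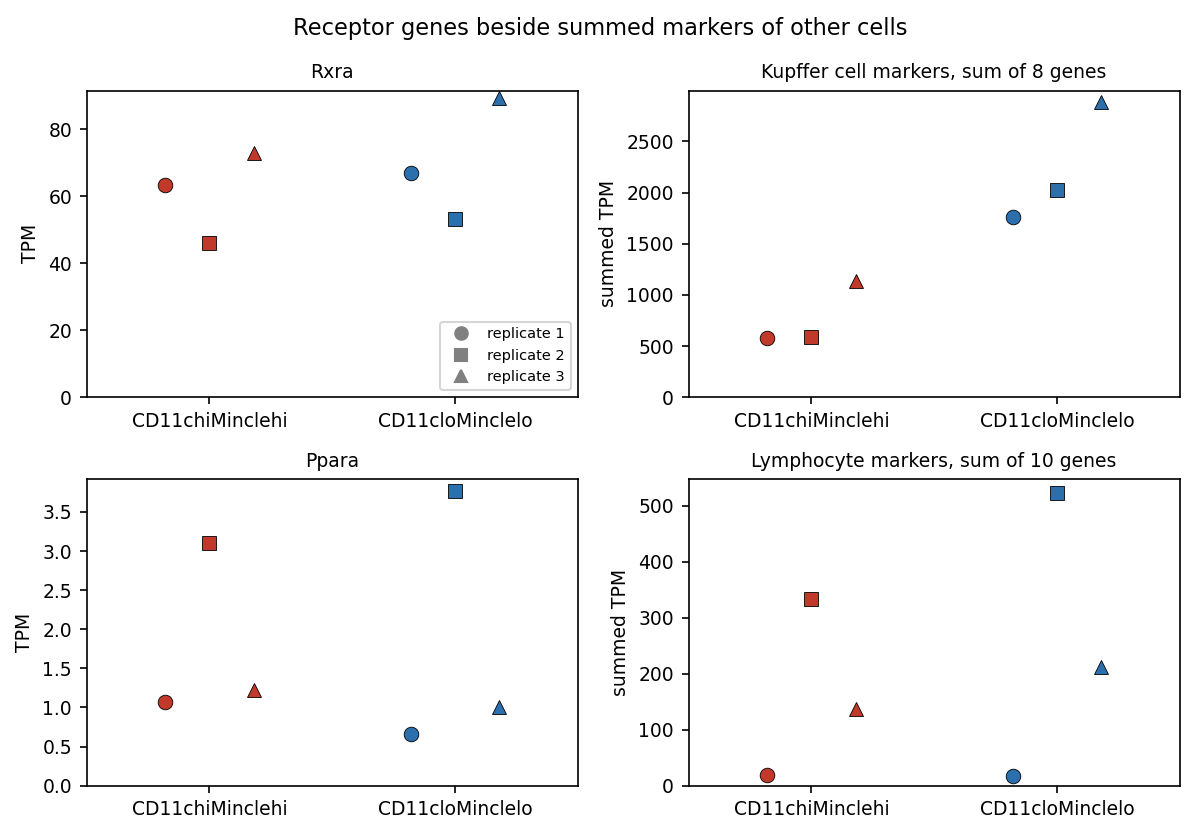
Rxra and Ppara in TPM (left) beside the summed TPM of 8 Kupffer cell markers and of 10 lymphocyte markers (right), CD11chiMinclehi left of CD11cloMinclelo, with the replicate number as the symbol and axes starting at 0. Rxra and the Kupffer cell markers are highest in library 3 of each group, as are the endothelial and neutrophil sums (not drawn). Rxra is lowest in library 2 of each group, while the Kupffer cell, endothelial and neutrophil sums are not. Ppara and the lymphocyte markers are highest in library 2 of each group, as is the monocyte sum (not drawn).

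Rara, the gene of the retinoic acid receptor alpha on chromosome 11 from 98927818 to 98974942 (plus strand), was at 31.2, 26.9 and 21.6 TPM in CD11chiMinclehi libraries and at 26.7, 30.3 and 18.3 TPM in CD11cloMinclelo libraries. The groups overlapped, and library 3 was the lowest in both. The log2 fold change was 0.09 ± 0.23 (95% interval from -0.45 to 0.63, limma adjusted p = 0.929), and its sign turned when CD11chiMinclehi library 1 (-0.03) or CD11cloMinclelo library 3 (-0.11) was left out.

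Among the NR4A genes, Nr4a1 (NUR77) was slightly lower in CD11chiMinclehi macrophages in each pair, and Nr4a2 and Nr4a3 had no common direction. Nr4a1, on chromosome 15 from 101254269 to 101274795 (plus strand), was at 566, 499 and 550.1 TPM in CD11chiMinclehi libraries, against 627, 527 and 598 TPM in CD11cloMinclelo libraries. The groups overlapped, since library 2 was the lowest in each of them (log2 fold change -0.11 ± 0.07, 95% interval from -0.28 to 0.06, limma adjusted p = 0.595). With the block the interval ran from -0.19 to -0.04 and the adjusted p was 0.147. In these deposited values a change of more than 1.5-fold lay outside the interval with and without the block. Duplicates had been removed from the reads, which can lower the values of abundant genes such as Nr4a1. The part of that step in this interval was not tested.

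Nr4a2 (NURR1), on chromosome 2 from 57106830 to 57124003 (minus strand), was at 115, 70.0 and 76.2 TPM in CD11chiMinclehi libraries and at 105, 104 and 69.1 TPM in CD11cloMinclelo libraries. It was higher in CD11chiMinclehi libraries 1 and 3 and lower in library 2 than in their CD11cloMinclelo counterparts (log2 fold change -0.10 ± 0.22, 95% interval from -0.62 to 0.42, limma adjusted p = 0.918). Its sign turned without CD11chiMinclehi library 2 (0.038) or CD11cloMinclelo library 1 (0.0016). Nr4a3 (NOR1), on chromosome 4 from 48045153 to 48086447 (plus strand), was at 47.4, 37.3 and 46.5 TPM in CD11chiMinclehi libraries and at 54.8, 51.7 and 42.3 TPM in CD11cloMinclelo libraries. It was lower in 2 of 3 pairs (log2 fold change -0.18 ± 0.15, 95% interval from -0.53 to 0.17, limma adjusted p = 0.723).

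Nr3c1, the glucocorticoid receptor gene on chromosome 18 from 39410545 to 39519421 (minus strand), was at 102, 92.2 and 98.4 TPM in CD11chiMinclehi libraries and at 117, 113 and 94.0 TPM in CD11cloMinclelo libraries. The groups overlapped through CD11cloMinclelo library 3, and the CD11chiMinclehi library was the lower in 2 of 3 pairs. The log2 fold change was -0.14 ± 0.10 (95% interval from -0.37 to 0.09, limma adjusted p = 0.655). In all, 5 of 10 receptors had the same direction in 3 of 3 pairs, Pparg higher and Nr4a1, Rxrb, Rxra and Ppard lower in CD11chiMinclehi macrophages, beside 37.2% of all genes.

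**Figure D3:**
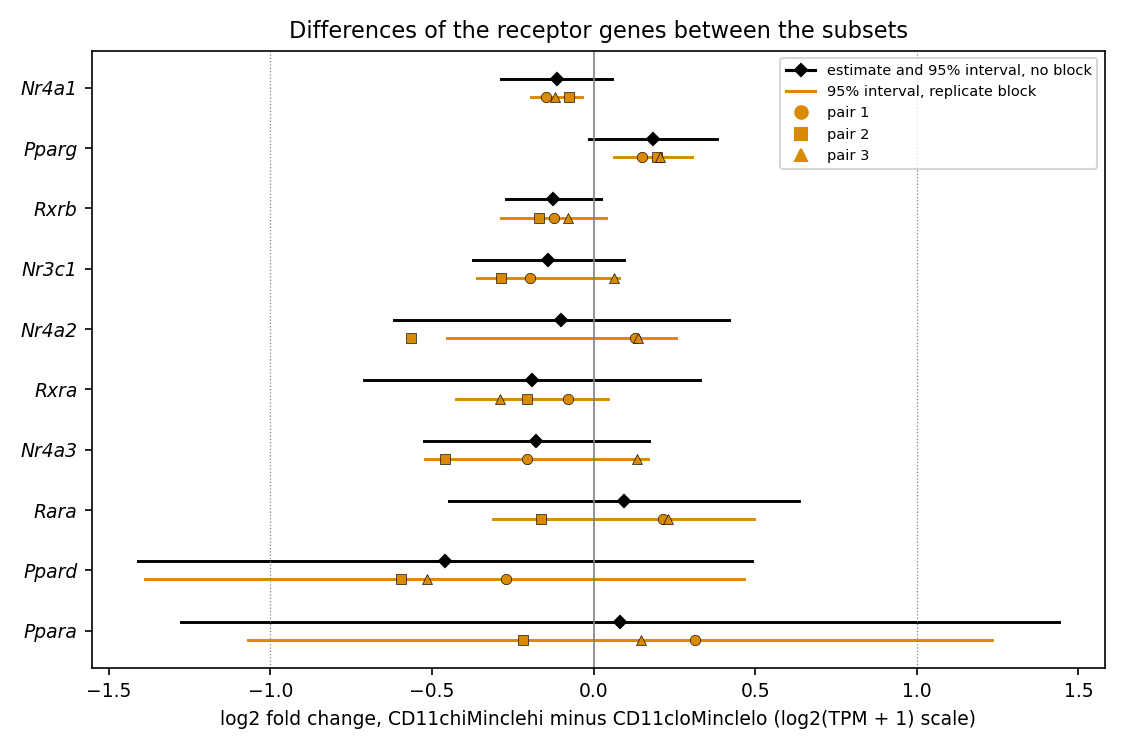
Log2 fold change (CD11chiMinclehi minus CD11cloMinclelo, log2(TPM + 1) scale) of each receptor gene, with the estimate and its 95% interval without the block in black, the interval with the replicate block in orange and the difference of each same-numbered pair as a symbol. Only the blocked intervals of Pparg (0.06 to 0.31) and Nr4a1 (-0.19 to -0.04) leave out 0, and those of Ppard and Ppara reach beyond 2-fold, marked by the dotted lines.

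Genes known as PPAR targets rose in CD11chiMinclehi macrophages in part, while the PPAR genes themselves did not pass. Of 32 lipid genes listed as PPAR targets, all measured, 4 rose and 0 fell, and 28 did not pass. Of all genes 0.770% rose. At an unadjusted p under 0.05 in limma stood 15 of the 32, or 18 with the replicate block. The shares of all genes were 12.9% and 16.6%. The list was chosen with earlier results of these data known. The median log2 fold change of the list was 0.15, beside -0.01 over all genes, and 25 of 32 values were positive. Fabp5, a fatty acid-binding protein gene, was at 304, 313 and 284 TPM in CD11chiMinclehi libraries, against 132, 153 and 157 TPM in CD11cloMinclelo libraries (log2 fold change 1.03 ± 0.08, limma adjusted p = 0.00467). Fabp4, its relative in fat cells and macrophages, was at 173, 116 and 147 TPM in CD11chiMinclehi libraries against 72.4, 79.5 and 64.1 TPM in CD11cloMinclelo libraries (0.99 ± 0.15, adjusted p = 0.0288). The levels of both genes were thus about 2-fold apart with no overlap.

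Angptl4, which encodes an inhibitor of lipoprotein lipase, was at 88.8, 84.4 and 78.7 TPM in CD11chiMinclehi libraries and at 46.0, 52.4 and 51.0 TPM in CD11cloMinclelo libraries (log2 fold change 0.74 ± 0.10, limma adjusted p = 0.0242). Plin2, the gene of a lipid droplet coat protein, was at 599, 618 and 577 TPM in CD11chiMinclehi libraries against 515, 477 and 508 TPM in CD11cloMinclelo libraries, a smaller rise (0.26 ± 0.04, adjusted p = 0.0440). Lipa, the gene of lysosomal acid lipase and the most abundant of the list, was at 667, 652 and 636 TPM in CD11chiMinclehi libraries against 580.3, 517 and 569 TPM in CD11cloMinclelo libraries and did not pass (0.23 ± 0.05, adjusted p = 0.0789). With the replicate block 9 of 32 rose and 0 fell, beside 1.67% of all genes that rose. The genes that passed only then, named after their values were seen, were Lipa (adjusted p = 0.0358), the scavenger receptor genes Cd36 (0.37 ± 0.07 without the block, blocked adjusted p = 0.0110) and Olr1 (0.56 ± 0.24, 0.0398), the fatty acid transporter gene Slc27a1 (0.55 ± 0.10, 0.00657) and the lipoprotein lipase gene Lpl (0.27 ± 0.07, 0.0367). Fabp5 is also known as a gene of lipid-associated macrophages. In the study's own qPCR, Cd36, Lpl and Fabp5 were already higher in CD11chiMinclehi macrophages. The count rested on every library, with 0 or 1 of 32 genes passing when any 1 was left out and 0 without the variance trend. The groups of the 4 risers did not overlap, so their sign could not turn when a library was left out.

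**Figure D4:**
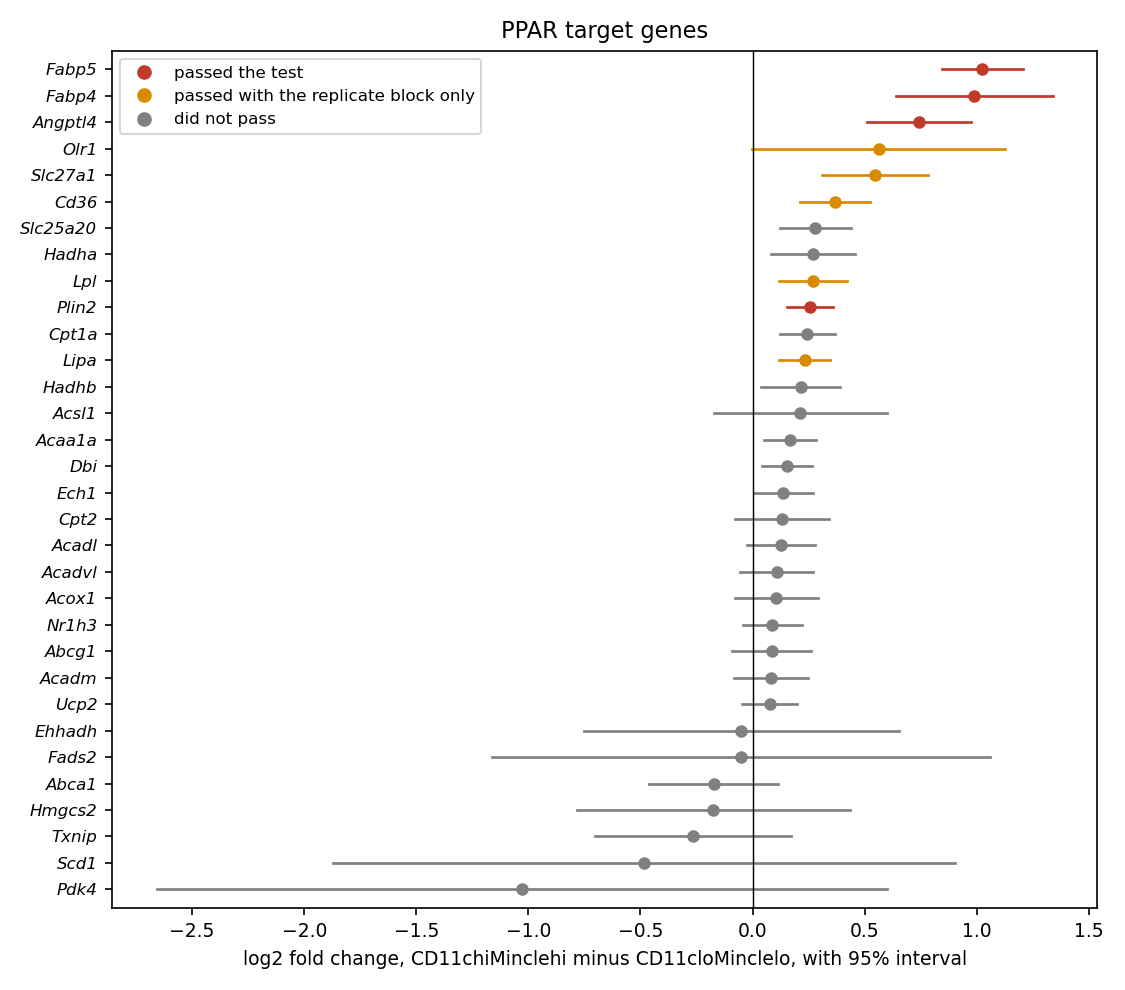
Log2 fold change (CD11chiMinclehi minus CD11cloMinclelo) of the 32 PPAR target genes with 95% intervals from the model without the block, in red where the gene passed, in orange where it passed only with the replicate block and in grey otherwise. Fabp5 (1.03), Fabp4 (0.99), Angptl4 (0.74) and Plin2 (0.26) passed, and 25 of 32 values lie above 0.

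Without the block, no target of RXR with the LXRs and no gene of retinoid synthesis and signalling passed. Of 16 measured RXR and LXR target genes (17 listed), 0 passed in limma with or without the block, with 7 and 3 at an unadjusted p under 0.05 and a list median of -0.08. Of all genes 3.42% and 1.22% passed, and 16.6% and 12.9% were under that unadjusted p. Apoe, the apolipoprotein gene of cholesterol export, was at 696, 727 and 697 TPM in CD11chiMinclehi libraries and at 785, 691 and 790.2 TPM in CD11cloMinclelo libraries (log2 fold change -0.09 ± 0.05, limma adjusted p = 0.545). Smpdl3a, a phosphodiesterase gene induced by LXR agonists, was at 442 ± 10.7 TPM in CD11chiMinclehi libraries against 424 ± 22.7 TPM in CD11cloMinclelo libraries (0.06 ± 0.05, adjusted p = 0.702). Of 14 measured retinoid genes (21 listed) 0 passed in limma without the block, with a median of -0.15. At an unadjusted p under 0.05 stood 5, beside 12.9% of all genes. The most abundant were the retinaldehyde reductase gene Dhrs3 (0.14 ± 0.05, adjusted p = 0.250) and the transglutaminase gene Tgm2 (-0.23 ± 0.06, adjusted p = 0.112). With the block 1 of 14 fell, beside 1.75% of all genes. That gene was Asb2, a ubiquitin ligase subunit gene induced by retinoic acid in myeloid cells. It was at 20.3, 9.61 and 21.5 TPM in CD11chiMinclehi libraries, against 47.3, 33.1 and 52.2 TPM in CD11cloMinclelo libraries (-1.37 ± 0.32, limma adjusted p = 0.107 unblocked and 0.0126 blocked).

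Of the glucocorticoid receptor targets 1 rose without the block, and with it targets passed in both directions. Of 18 measured targets (20 listed) 1 rose and 0 fell, with a list median of -0.07. Of all genes 0.770% rose and 0.454% fell. At an unadjusted p under 0.05 in limma stood 6 of the 18, or 7 with the replicate block, beside 12.9% and 16.6% of all genes. The riser was Anxa1, the annexin gene known for limiting inflammation, at 406, 422 and 417 TPM in CD11chiMinclehi libraries against 276, 279 and 254 TPM in CD11cloMinclelo libraries (log2 fold change 0.62 ± 0.05, limma adjusted p = 0.00563). It passed without CD11chiMinclehi library 3 (adjusted p = 0.0382) and missed the threshold without any of the other 5 libraries (0.0527 to 0.0815) and without the variance trend (0.134). The most abundant targets did not pass, Dusp1 at 679.9 ± 3.53 TPM in CD11chiMinclehi libraries against 687 ± 68.0 TPM in CD11cloMinclelo libraries (-0.01 ± 0.07, adjusted p = 0.981) and Nfkbia at 564 ± 19.7 TPM in CD11chiMinclehi libraries against 590.4 ± 51.0 TPM in CD11cloMinclelo libraries (-0.06 ± 0.06, adjusted p = 0.771). With the block 2 rose and 2 fell, beside 1.67% and 1.75% of all genes. The kinase gene Sgk1 joined Anxa1 (0.29 ± 0.08, blocked adjusted p = 0.0369), while the stress response gene Sesn1 (-0.36 ± 0.07, 0.0446) and Fkbp5, which encodes a chaperone that restrains the receptor (-0.60 ± 0.20, 0.0472), fell. Fkbp5 was at 36.7, 27.7 and 40.3 TPM in CD11chiMinclehi libraries against 58.9, 40.7 and 61.2 TPM in CD11cloMinclelo libraries and was the only one of 11 measured chaperone and ligand supply genes (13 listed) to pass with the block. Without it 0 of 11 passed in limma, and 1 had an unadjusted p under 0.05, with a list median of -0.00067. The most abundant of these, Hsp90ab1 (0.00 ± 0.04, adjusted p = 0.988) and Bag1 (0.04 ± 0.04, adjusted p = 0.743), encode a chaperone of the receptor and a co-chaperone of HSP70.

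The immediate early genes, transcribed with the NR4A genes after stimulation, had a high summed level in every library of both subsets. Single genes such as Fosl1 (0 to 1.55 TPM, named after its values were seen) were low. Before the sort, the study perfused and digested the livers with warm collagenase. The part of this handling in these levels, or in that of Nr4a1, was not tested. The sum over 27 measured genes (28 listed) was 8025, 7629.9 and 8108 TPM in CD11chiMinclehi libraries and 8592, 7351 and 8453 TPM in CD11cloMinclelo libraries, with library 2 the lowest in each group, as for Nr4a1. Of the 27 genes, 0 passed in limma and 1 had an unadjusted p under 0.05, beside 1.22% and 12.9% of all genes. The list median was -0.03. Fos was at 727 ± 12.4 TPM in CD11chiMinclehi libraries against 746 ± 60.3 TPM in CD11cloMinclelo libraries (-0.03 ± 0.06, adjusted p = 0.879) and Junb at 703 ± 6.46 TPM in CD11chiMinclehi libraries against 706 ± 56.4 TPM in CD11cloMinclelo libraries (0.00 ± 0.06, adjusted p = 0.992). With the block 1 fell, Ier2, at 364, 329 and 399 TPM in CD11chiMinclehi libraries against 453, 389 and 489 TPM in CD11cloMinclelo libraries (-0.28 ± 0.10, blocked adjusted p = 0.0144).

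The remaining nuclear receptors and their coregulators gave no call in either model. Of 21 measured receptors (39 listed) and 19 measured coregulators (20 listed), 0 passed in limma, with 5 of each at an unadjusted p under 0.05. Of all genes 12.9% were under that unadjusted p. The medians were -0.03 for the receptors and -0.04 for the coregulators. The LXR genes Nr1h3 (369 ± 4.74 TPM in CD11chiMinclehi libraries against 347 ± 25.0 TPM in CD11cloMinclelo libraries, log2 fold change 0.09 ± 0.06, limma adjusted p = 0.595) and Nr1h2 (0.04 ± 0.06, adjusted p = 0.891) did not pass. The largest positive fold change in this list, named after the values were seen, was that of the vitamin D receptor gene Vdr, at 22.2, 27.3 and 20.6 TPM in CD11chiMinclehi libraries against 12.7, 18.1 and 6.10 TPM in CD11cloMinclelo libraries (0.98 ± 0.36, adjusted p = 0.299). The corepressor subunit genes Gps2 (-0.14 ± 0.06, adjusted p = 0.326) and Hdac3 (0.14 ± 0.06, adjusted p = 0.402) were the most abundant coregulators.

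**Figure D5:**
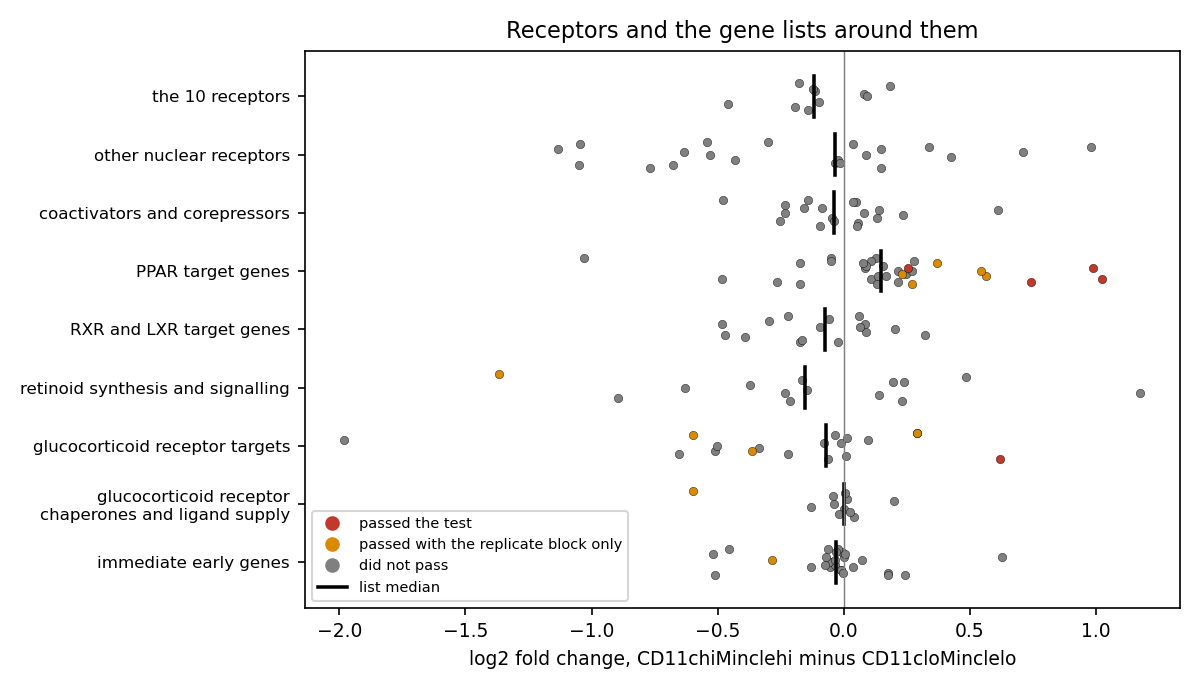
Log2 fold changes (CD11chiMinclehi minus CD11cloMinclelo) of the 10 receptors and of the genes in 8 lists around them, 1 point per gene, red where it passed, orange where it passed only with the replicate block, with the list median as a black bar. Red points stand in the PPAR target list (4 genes) and the glucocorticoid receptor target list (1 gene), while the receptors themselves gather near their median of -0.12.

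The pattern of each receptor over the 6 libraries was compared with those of 8602 genes of at least 20 TPM, by Pearson's r of log2(TPM + 1) as a description. With 6 libraries many genes reach a high r, and between 13 and 77 genes per member were above 0.95. The genes most like Pparg were Trappc3 (r = 0.998), Olr1 (0.987) and Itgam (0.985), and those most like Rxra were Senp3 (0.990), Tbxas1 (0.988) and Eif2b5 (0.987). For Rxrb they were Hes1 (1.00), Limd2 (0.997) and Dennd2d (0.994). Hes1, a repressor gene downstream of Notch, was itself lower in CD11chiMinclehi macrophages (log2 fold change -0.52, limma adjusted p = 0.0256). Likeness to Rxrb, whose groups did not overlap, had picked Hes1, so this is no separate result. The Hes1 call was lost without CD11chiMinclehi library 1 or 2, when 0 of all genes passed. Inpp5k, Slc7a8 and Nmd3 were nearest to Nr4a1 (0.993, 0.991 and 0.990), Ipo7, Zbtb1 and Arih2 to Nr4a2 (0.984, 0.977 and 0.973) and Fam107b, Csnk1g3 and Zfp281 to Nr4a3 (0.986, 0.982 and 0.982). Rbm22, Kbtbd7 and Mplkip were nearest to Nr3c1 (0.992, 0.985 and 0.981) and Aimp2, Mterf3 and Cdca4 to Rara (0.999, 0.996 and 0.992). For the low genes they were Nudt16l1, Scand1 and Cybc1 (Ppard, 0.984, 0.981 and 0.978) and Ddit3, Znrf1 and Ntan1 (Ppara, 0.995, 0.990 and 0.984). Among the members themselves Nr4a3 and Nr3c1 were closest (r = 0.942, over the same 6 libraries).

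The libraries held 7.14 to 7.81 M estimated reads (M, mega) in CD11chiMinclehi macrophages and 7.01 to 8.14 M in CD11cloMinclelo macrophages. All 10 macrophage markers sought were present, with C1qb and Lyz2 the highest. None passed in limma, 3 had an unadjusted p under 0.05, and with the block Adgre1 (-0.22 ± 0.07 unblocked, blocked adjusted p = 0.0422) and Fcgr1 (-0.27 ± 0.06, 0.0464) fell. C1qb was at 881 to 921 TPM in CD11chiMinclehi libraries and 855 to 992 TPM in CD11cloMinclelo libraries, and Timd4, which encodes Tim4, at 0 to 3.19 TPM in CD11chiMinclehi and 0.814 to 3.77 TPM in CD11cloMinclelo libraries. Markers of other cells were also read. The 10 hepatocyte markers summed to 1538, 2822 and 1726 TPM in CD11chiMinclehi libraries and to 1779, 2336 and 2468 TPM in CD11cloMinclelo libraries, highest in library 2 of the CD11chiMinclehi group and in library 3 of the CD11cloMinclelo group, led by Alb (319.7 to 602 TPM in CD11chiMinclehi and 344 to 501 TPM in CD11cloMinclelo libraries) and Apoa1. The 10 lymphocyte markers, led by Nkg7 and Trac, summed to 19.7, 334 and 137 TPM in CD11chiMinclehi libraries and to 18.1, 523 and 212 TPM in CD11cloMinclelo libraries, so libraries numbered 2 were the highest, as they were for Ppara and for the monocyte markers (497, 749.6 and 576 TPM in CD11chiMinclehi libraries, 714, 1079 and 668 TPM in CD11cloMinclelo libraries). The sort gated out CD90.2, B220 and NK1.1. Hepatocytes express Ppara strongly, and the part of RNA from hepatocytes or other cells in the Ppara values was not tested. The stellate cell and fibroblast markers summed to 121 to 160.3 TPM in CD11chiMinclehi and 175 to 267 TPM in CD11cloMinclelo libraries, and Dcn among them fell (log2 fold change -0.65 ± 0.09, limma adjusted p = 0.0253), a call lost without any 1 library (adjusted p = 0.0595 to 0.146) and without the variance trend (0.161). Of the monocyte, endothelial, neutrophil and dendritic cell markers, 0 passed in limma without the block, with 1, 2, 1 and 0 genes at an unadjusted p under 0.05, and 1, 1, 1 and 0 passed with the block. Of all genes 1.22% passed without the block and 3.42% with it, and 12.9% had an unadjusted p under 0.05 without it.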

How the data were processed

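Gene expression was measured by poly(A) RNA-seq of 6 libraries. Per the methods and processing notes of the study, the authors used Trimmomatic 0.39.0 on paired-end reads, HISAT2 2.2.1 with GRCm38, Picard against PCR duplicates and featureCounts 2.0.1 for gene counts. From these they made the deposited TPM with mm10 gene lengths. Strand setting and annotation release: not given in the sources used here. Removal of duplicates by position can lower the values of abundant genes, and the highest was 1382 TPM. Nr4a1, Fos, Junb, Dusp1, Nfkbia and Apoe are among the abundant genes here. The part of duplicate removal in their fold changes was not tested. TPM keeps no depth. Depth was instead read from the spacing of low values of TPM times exon length (GENCODE M21, 16104 genes, 97.6%), of which 80.1% to 87.6% lay within 0.05 of a whole multiple. A step counted as 1 estimated read may be a read pair.

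For testing, limma 3.58.1 under R 4.3.3 was fitted to log2(TPM + 1) (mean-variance trend, all 16503 genes, two-sided, Benjamini-Hochberg, threshold 0.05). The fit was checked on simulated data whose libraries were drawn independently, so any deviation shared by same-numbered libraries was not covered. Fold changes are CD11chiMinclehi minus CD11cloMinclelo and understate changes of low genes. Deviations from the group means correlated between same-numbered libraries at 0.36, 0.20 and 0.12, all above the minimum of 0.1 that was set. Between libraries of different numbers the correlation was at most 0.06. With 3 libraries per group these values are not independent of each other, and a shared deviation was not tested. The study used paired t-tests for other measurements of these subsets, such as qPCR. The main model nevertheless left the pairing out, as none is stated for the RNA-seq libraries, and the blocked model is given beside it. The pseudocount (0.1 and 5), a minimum mean of 5 TPM, no trend, quantile normalisation, the block and each left-out library were tried. Named were all members, of each list the genes that passed (at most 6) and the 2 most abundant, and the 3 genes most like each member. Genes, lists and tests were chosen with earlier results of these data known. Promoters came from RefSeq (GRCm38.p6), used for 9 of 10 members. The promoter of Nr3c1 was not used here.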

Additional observations from a re-analysis of the deposited data

How the results depend on the processing

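The counts of receptors that passed, 0 higher and 0 lower, held under every alternative tried. Of all genes only 0 to 46 passed with 1 library left out and 19 without the trend, so a count of 0 says little there. Leaving out the trend, adding the block or setting a minimum mean does not alter an estimate, so no sign could turn there. Of 118 recomputed fold changes of the receptors, 110 kept their sign. The 8 that did not came from leaving out 1 library and concerned Ppara, Rxra, Rara and Nr4a2, none of which passed. With 1 library left out, the log2 fold change ran from -0.23 to 0.54 for Ppara, from -0.37 to 0.00075 for Rxra, from -0.11 to 0.24 for Rara and from -0.32 to 0.038 for Nr4a2. For Pparg it ran from 0.13 to 0.26 and for Nr4a1 from -0.19 to -0.06.

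Over all genes 202 passed, 19 without the trend, 337 after quantile normalisation and 564 with the replicate block, and 0 to 46 with 1 library left out. Of the PPAR targets 4 passed, 0 without the trend, 8 after quantile normalisation, 9 with the replicate block and 0 to 1 with 1 library left out. Of the glucocorticoid receptor targets 1 passed, 0 without the trend, 2 after quantile normalisation, 4 with the block and 0 to 1 with 1 library left out. The retinoid list, at 0, gave 1 after quantile normalisation and 1 with the block. The chaperone list and the immediate early genes, both at 0, gave 1 each with the block. Pairing changed no call of a receptor. Causes were not tested. The median r of the most alike gene, 0.992, ran from 0.990 to 0.996 with other pseudocounts or 1 library left out, settings chosen after seeing the data.

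Without the block, 95% intervals lay within 1.5-fold for 5 of 10 receptors, with it for 8, and with few estimated reads those of Ppard and Ppara reached beyond 2-fold in both models. A left-out library leaves 2 against 3.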
